A study of Mus musculus with 30 samples.

Results

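Perineuronal net and neural proteoglycan genes were followed in the primary visual cortex (V1) of mice at postnatal days 14, 28 and 60 (P14, P28 and P60). The members were chosen by gene symbol: the link proteins Hapln1 and Hapln4, the lecticans Acan, Bcan, Ncan and Vcan, the tenascins Tnr and Tnc, and the receptor phosphatase and proteoglycan Ptprz1. Of these 9 genes, 8 had at least 1 probe set whose annotation gave that symbol alone, 25 probe sets in all, among 15965 genes on the arrays. Tnr had none and was not analysed here. V1 was dissected from litters reared in a standard way: P14 and P28 were represented by 3 litters each, and P60 by 4. RNA of each litter was hybridised to 3 array types, called chips A, B and C after the letters in the sample titles. No allele or treatment is given for any group, and the sources used here do not give strain, sex or the number of animals in a litter. Titles carry the number 1 as a first litter number in all samples, followed by another that the source name repeats. The latter was read as the litter, and the p-values assume that the 10 litters so counted are separate.

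Perineuronal nets are a lattice of extracellular matrix that wraps the cell body and proximal dendrites of certain neurons, in the cortex mainly the fast-spiking interneurons that contain parvalbumin. A backbone of hyaluronan is bound by lecticans, which are chondroitin sulphate proteoglycans, link proteins lock both together, and tenascin-R crosslinks the lecticans at their far end. The juvenile brain matrix is known to be rich in neurocan, versican and tenascin-C, and the nets that form towards the end of the critical period for ocular dominance are known for aggrecan, brevican, tenascin-R and link proteins. Each lectican gene lies beside a link protein gene in the genome. In the RefSeq annotation of GRCm38.p6, Ncan was the next protein-coding gene to Hapln4 on chromosome 8, Vcan to Hapln1 on chromosome 13, Bcan to Hapln2 on chromosome 3 and Acan to Hapln3 on chromosome 7.

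Values are MAS5 signals, a linear intensity for each probe set that had been scaled by the authors to the same trimmed mean on every array. A probe set was tested if its signal exceeded the median of its chip type on at least 3 arrays, and 11 of the 25 passed, for Hapln4, Bcan, Ncan, Vcan and Ptprz1. All probe sets of Hapln1, Acan and Tnc were too dim to be tested. Before logarithms were taken, the 20th percentile of the chip type was added to each signal, so a log2 change understates the change of dim probe sets. Signals of different probe sets are not comparable as levels, and only the course of each over age is read. The 3 chips of a litter carried the same RNA, so probe sets of 1 gene share their litters and are not replicates. A lower signal in tissue RNA can come from fewer cells of a type or from less RNA per cell, and these cannot be told apart here.

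P14 litter 1 stood apart from the other litters. On its 3 arrays the 3′ control probe set of Gapdh was 9.57 to 12.2 times as bright as the 5′ one, against 0.741 to 1.32 times on the other 27. For Actb this ratio was 12.2 to 12.8, against 1.04 to 1.5. Changes of the members between P14 and the older ages, and the lists of other genes, are therefore also given without it, whereas counts of litters that do not overlap are given with all litters. The chip C array of P60 litter 2 had the lowest mean correlation with the other arrays of its chip among all 30 (0.86). The excitatory neuron markers fixed for checking the tissue were present, with 7 of 8 tested and a summed signal of 26665 to 30104 at P14, 24165 to 26562 at P28 and 21750 to 29546 at P60. Summed signals of this and other lists add probe sets of different chips and mostly follow the brightest. In this list the P14 means ran from 242 for Neurod6 to 9373 for Slc17a7. Over all tested probe sets, limma called 1 of 20724 between P14 and P28 (0.00483%), 0 between P28 and P60 (0%, with 5.43% at an unadjusted p under 0.05) and 82 between P14 and P60 (0.396%), 22 of them higher (0.106%) and 60 lower (0.29%) at P60. Without P14 litter 1 the counts were 26 (0.125%), 1 and 497 (2.4%).

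The mean signal of Ncan on its brightest probe set was 2.14 times as high at P14 as at P60, which just missed the threshold. On its other tested probe set, 98798_at, it was 1.35 times as high. For Hapln4 the mean signal was 2.44 times as high at P60 as at P14 on probe set 135312_at and 1.27 times on 139175_at. Brevican had no common course on its 2 tested probe sets. Among the 11 tested probe sets, 1 passed the test between P14 and P60, that of Hapln4 on chip C, and none passed between P14 and P28, between P28 and P60, or over the 3 ages together, where 23 probe sets of the whole set were called (0.111%). In a restricted set (without P14 litter 1 on all chips, P60 litters 1 and 4 on chips A and B, and P60 litter 2 on chip C), 208 probe sets were called between P14 and P28 (1%) and 441 between P14 and P60 (2.13%). The arrays left out were those with the lowest mean correlation with the others of their chip, so these counts are not like for like. At an unadjusted p under 0.05 there were 4 of the 11 between P14 and P28, where 7.87% of all tested probe sets were, 0 between P28 and P60 and 7 between P14 and P60, where 15.7% of all were. Median log2 changes over the 11 were -0.35 for P28 against P14, -0.09 for P60 against P28 and -0.59 for P60 against P14, where the medians of all tested probe sets were 0.03, -0.01 and 0.06. Without P14 litter 1 the members' medians were -0.23, -0.09 and -0.42, against 0.01, -0.01 and 0.02 for all, and 5 of the 11 had an unadjusted p under 0.05 between P14 and P60, where 19.1% of all did. These counts and medians describe probe sets of which several report the same gene. With all litters, the 7 under 0.05 between P14 and P60 came from Hapln4, Ncan and Ptprz1 alone.

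**Figure D1:**
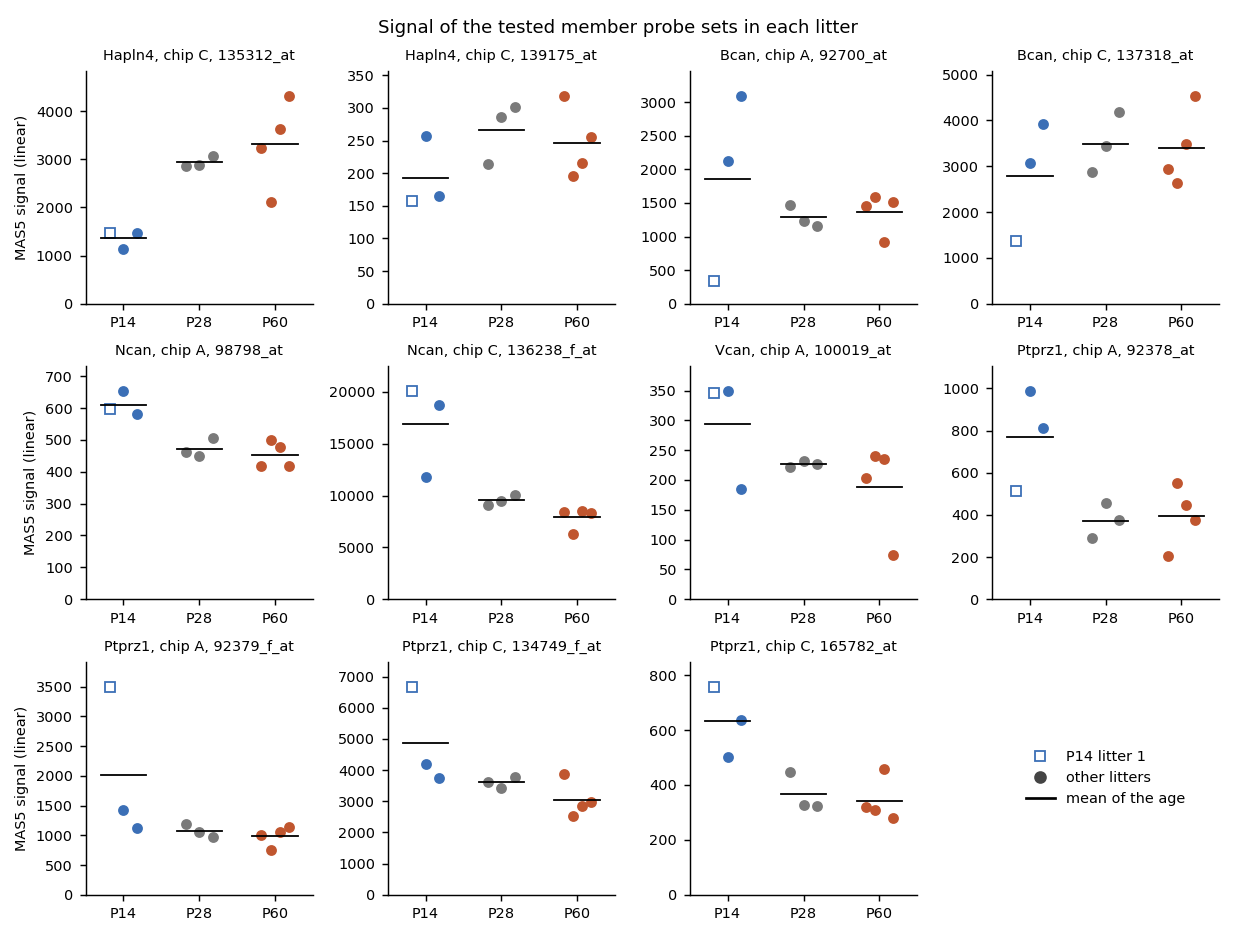
Signal of each of the 11 tested probe sets (linear axis from 0) in the 10 litters by age; the open square is P14 litter 1, filled points are the other litters and lines are the means of each age. Hapln4 on probe set 135312_at has all P28 and P60 litters above all P14 litters, Ncan on 136238_f_at has them all below, and P14 litter 1 is far from the other P14 litters for Bcan and for Ptprz1 on 92379_f_at and 134749_f_at.

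Hapln4 encodes a brain-specific link protein, also called Bral2, that is found in perineuronal nets together with brevican. On chip C, probe set 135312_at gave 1476, 1147 and 1467 at P14, 2868, 2876 and 3080 at P28, and 3244, 2113, 3628 and 4325 at P60. Every litter of P28 and P60 was above every litter of P14, and the ranges of P28 and P60 overlapped. The mean signal was 1363 ± 187 (SD, n = 3) at P14, 2941 ± 120 (SD, n = 3) at P28 and 3327 ± 925 (SD, n = 4) at P60. The log2 change from P14 to P60 was 1.22 with a standard error of 0.239 (limma, adjusted p = 0.0491). It was the last of the 82 calls when all probe sets were ordered by p. Most of the difference lay before P28, where the log2 change was 1.09 with a standard error of 0.255, which did not pass (adjusted p = 0.259). From P28 to P60 it was 0.13 with a standard error of 0.239 (adjusted p = 0.964).

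The direction of the Hapln4 change between P14 and P60 held when any 1 litter was left out, with log2 changes from 1.08 to 1.42, but the call did not. It was lost in 8 of those 10 fits, with adjusted p up to 0.158 (without P14 litter 2), and kept without P14 litter 1 (1.28, adjusted p = 0.0301) and without P60 litter 2 (1.42, adjusted p = 0.0334). The second tested Hapln4 probe set, 139175_at, was dim, with 158 to 257 at P14, 214 to 301 at P28 and 196 to 319 at P60, around the 252 that marks the 95th percentile of Bacillus control probe sets on chip C. Its ages overlapped, and its log2 change from P14 to P60 was 0.30 with a standard error of 0.322 (adjusted p = 0.677), and 0.19 without P14 litter 1 (adjusted p = 0.810). The Hapln4 probe set on chip B was not tested, with signals from 56.7 to 187.

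Hapln1 encodes the link protein first known from cartilage, which is a component of cortical nets and is needed for their normal assembly. Its 3 probe sets were not tested. The brightest, 169604_at on chip C, gave 96.2, 90.9 and 231 at P14, 137, 102 and 124 at P28, and 130, 55.9, 107 and 121 at P60. All these values lay under the chip's Bacillus control level of 252. On the other Hapln1 probe sets 1 array in all exceeded that level for its chip, so the arrays give no measure of how Hapln1 moved with age.

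The promoters of Ncan, Ptprz1 and Bcan are shown because their mean signals were compared across probe sets. Those of Ncan and Ptprz1 were lower at P28 and P60 than at P14 on every tested probe set. For Bcan this held on 92700_at (1851, 1287 and 1365 at P14, P28 and P60) but not on 137318_at (2786, 3492 and 3398). Without P14 litter 1 the P14 means of 92700_at and 137318_at were 2610 and 3494. Their log2 changes from P14 to P60 were then -0.92 and -0.06, so these probe sets still differed. Each stretch is the 250 bases before the annotated start on the gene's own strand, from RefSeq on build GRCm38.p6, and Hapln4 was not among the sequences used here. Capitals mark matches, on either strand, to CCAAT, to the Sp1 box GGGCGG and to TATAAA. The stretches lie at chr8:70120845-70121094 on the minus strand for Ncan, chr6:22875252-22875501 on the plus strand for Ptprz1 and chr3:88000357-88000606 on the minus strand for Bcan.
Ncan: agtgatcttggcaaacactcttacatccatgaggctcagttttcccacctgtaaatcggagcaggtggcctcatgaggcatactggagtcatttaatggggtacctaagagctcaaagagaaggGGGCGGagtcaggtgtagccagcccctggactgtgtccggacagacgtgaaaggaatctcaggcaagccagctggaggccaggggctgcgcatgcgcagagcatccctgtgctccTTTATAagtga
Ptprz1: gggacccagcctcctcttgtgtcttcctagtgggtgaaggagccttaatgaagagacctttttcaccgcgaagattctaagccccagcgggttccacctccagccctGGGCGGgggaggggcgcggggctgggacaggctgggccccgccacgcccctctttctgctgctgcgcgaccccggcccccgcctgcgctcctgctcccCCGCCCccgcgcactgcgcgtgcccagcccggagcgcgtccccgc
Bcan: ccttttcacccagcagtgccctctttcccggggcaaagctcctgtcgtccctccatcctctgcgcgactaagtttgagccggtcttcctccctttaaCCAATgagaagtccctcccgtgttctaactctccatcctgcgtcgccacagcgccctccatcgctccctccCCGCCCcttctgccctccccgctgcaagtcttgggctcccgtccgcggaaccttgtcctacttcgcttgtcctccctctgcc
The Ncan stretch held 1 TATAAA match, which 13% of 27025 promoters of the same length have, and 1 GGGCGG match, which 32.9% have. The Ptprz1 stretch held 2 GGGCGG matches and no TATAAA or CCAAT. The Bcan stretch held 1 CCAAT match, which 34.5% have, and 1 GGGCGG match. Base composition differed, with 54.4% G and C for Ncan, 71.6% for Ptprz1 and 62.0% for Bcan, where the median promoter had 52.0%. None of the 3 held the letters ACAAT (28.3% of promoters), TAATCC (6.38%) or TGACG (17.9%), which were also searched on both strands. A match of letters is a description and not a site.

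Ncan encodes neurocan, a secreted lectican of the developing brain that binds hyaluronan and neural cell adhesion molecules. On chip C, probe set 136238_f_at gave 20082, 11768 and 18755 at P14, 9129, 9477 and 10054 at P28, and 8440, 6293, 8505 and 8358 at P60. The 3 ages did not overlap at all, with P14 highest and P60 lowest. Mean signals were 16868 ± 4467 (SD, n = 3), 9554 ± 467 (SD, n = 3) and 7899 ± 1072 (SD, n = 4), so that the P14 mean was 2.14 times the P60 mean. The log2 change from P14 to P60 was -1.06 with a standard error of 0.228, just short of the threshold (adjusted p = 0.0635), and from P14 to P28 it was -0.78 with a standard error of 0.243 (adjusted p = 0.441). Without P14 litter 1 the P60 change was -0.92 (adjusted p = 0.0556), and it lay between -1.30 and -0.92 when any 1 litter was left out. It was -0.70 with quantile normalization (adjusted p = 0.122) and passed with array weights (-0.98, adjusted p = 0.00582). The suffix f marks a probe set that can be shared between related transcripts.

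On chip A the Ncan probe set 98798_at gave 597, 653 and 582 at P14, 463, 448 and 507 at P28, and 419, 499, 478 and 418 at P60. All P28 and P60 litters were again below all P14 litters, and those of P28 and P60 overlapped. The difference was smaller than on chip C, with a log2 change from P14 to P60 of -0.40 and a standard error of 0.171 (adjusted p = 0.285), and -0.42 without P14 litter 1 (adjusted p = 0.234). The remaining Ncan probe set, 98799_g_at on chip A, was not tested. It gave 154, 260 and 176 at P14, 153, 193 and 150 at P28 and 46.3, 120, 58.4 and 41.8 at P60, where 3 of 4 litters were below the Bacillus level of 98.4. Across the 10 litters the log2 signals of the tested Ncan probe sets had a Pearson correlation of 0.69, and 0.61 without P14 litter 1.

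Bcan encodes brevican, the most abundant lectican of the adult brain and a component of nets and of the matrix around synapses. On chip A, probe set 92700_at gave 333, 2123 and 3097 at P14, 1463, 1237 and 1162 at P28, and 1448, 1586, 920 and 1507 at P60. P14 litter 1 was the lowest of all litters here and the other P14 litters were the highest. With all litters its log2 change from P14 to P60 was 0.01 with a standard error of 0.555 (adjusted p = 0.991) and -0.92 with a standard error of 0.232 without P14 litter 1 (adjusted p = 0.0594). From P14 to P28 it went from -0.04 to -0.98 (adjusted p = 0.993 and 0.162).

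On chip C the Bcan probe set 137318_at gave 1371, 3075 and 3912 at P14, 2865, 3439 and 4174 at P28, and 2932, 2632, 3486 and 4542 at P60. P14 litter 1 was again the lowest litter, and the remaining litters of the 3 ages overlapped. The log2 change from P14 to P60 was 0.38 with a standard error of 0.321 (adjusted p = 0.582), and -0.06 with a standard error of 0.248 without P14 litter 1 (adjusted p = 0.919). The correlation of the 2 tested Bcan probe sets was 0.69 over the 10 litters, and without P14 litter 1 they shared no course. Of the 3 Bcan probe sets not tested, 161996_f_at on chip A gave 76.0 to 182 at P14, 125 to 211 at P28 and 18.3 to 73.1 at P60, with all P60 litters under the Bacillus level. Fitted with no filter, its log2 change from P14 to P60 was -1.08 (adjusted p = 0.208). The others did not share this fall, with 0.49 for 105875_at on chip B and -0.06 for 168179_at on chip C (limma, adjusted p = 0.608 and 0.919). Signals of 105875_at ran from 81.1 to 123 at P14 and from 72.6 to 457 at P60, around that chip's Bacillus level of 153.

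Vcan encodes versican, a lectican of early matrix and of oligodendrocyte lineage cells. Its tested probe set on chip A, 100019_at, gave 346, 349 and 185 at P14, 221, 232 and 226 at P28, and 204, 241, 235 and 74.6 at P60. The ages overlapped, and P60 litter 4 was the lowest. Its log2 change to P60 was -0.59 with a standard error of 0.345 (adjusted p = 0.420). It was -0.46 without P14 litter 1 (adjusted p = 0.543), -0.28 without P60 litter 4 (adjusted p = 0.705) and -0.09 in the restricted set (adjusted p = 0.906). The other Vcan probe set, on chip C, stayed between 15.6 and 97.4, under the Bacillus level in every litter.

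Acan encodes aggrecan, the lectican used most often to mark perineuronal nets. Its single probe set, 104205_at on chip A, was not tested, with 37.0, 16.2 and 121 at P14, 24.4, 115 and 29.0 at P28, and 233, 149, 35.8 and 68.2 at P60. The brightest litters were at P60, and the 3 ages overlapped. Only 4 arrays exceeded the chip's Bacillus level of 98.4, and with no filter the log2 change from P14 to P60 was 0.70 (adjusted p = 0.542).

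Tnc encodes tenascin-C, a glycoprotein of the developing matrix. It also had no tested probe set. Probe set 101993_at on chip A gave 16.7, 143 and 97.6 at P14, 107, 66.1 and 113 at P28, and 232, 103, 103 and 272 at P60. All P60 litters and 3 of the younger ones were above the Bacillus level of 98.4, and the ages overlapped. The other Tnc probe set ran from 3.58 to 61.2, under that level in every litter. With no filter the log2 changes from P14 to P60 were 0.87 on 101993_at and -0.50 on the other (limma, adjusted p = 0.397 and 0.392).

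**Figure D2:**
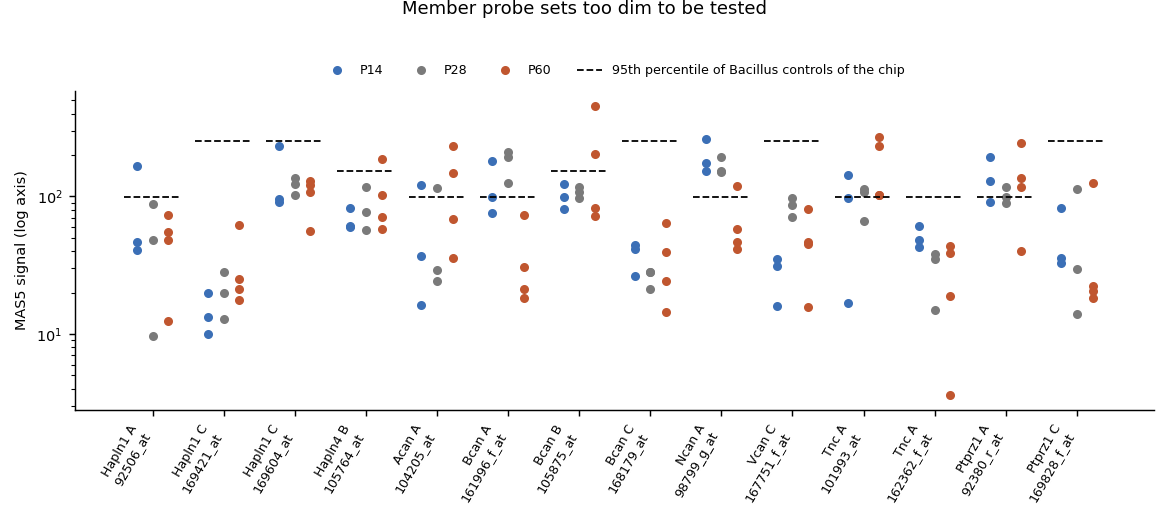
Signals (log axis) of the 14 probe sets that were not tested, by litter and age, with a dashed line at the 95th percentile of the Bacillus control probe sets of the same chip. On 6 of the 14 no litter exceeds that line, and the most litters above it on any is 7, on Tnc 101993_at, Ncan 98799_g_at and Ptprz1 92380_r_at.

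Ptprz1 encodes a receptor tyrosine phosphatase of glia and their progenitors, of which the secreted splice form phosphacan is a chondroitin sulphate proteoglycan that binds tenascins and contactin. All 4 tested probe sets had lower mean signals at P28 and P60 than at P14, and none passed. On chip C, probe set 165782_at gave 758, 500 and 638 at P14, 448, 326 and 323 at P28, and 318, 309, 459 and 280 at P60. Every P28 and P60 litter was below every P14 litter. Between P14 and P60 the log2 change was -0.81 with a standard error of 0.281 (adjusted p = 0.196), and -0.68 without P14 litter 1 (adjusted p = 0.269).

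On chip A, the Ptprz1 probe set 92378_at gave 512, 987 and 813 at P14, 290, 455 and 374 at P28, and 204, 550, 447 and 376 at P60. P28 lay wholly below P14, while P60 litter 2 reached above P14 litter 1. The log2 change from P14 to P60 was -0.93 with a standard error of 0.315 (adjusted p = 0.196), and -1.18 without P14 litter 1 (adjusted p = 0.0697). On this probe set P14 litter 1 was the lowest of the P14 litters.

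The remaining tested Ptprz1 probe sets behaved the other way round in that litter. Probe set 92379_f_at gave 3498 in P14 litter 1, against 1420 and 1122 in the other P14 litters, and 747 to 1195 later. Probe set 134749_f_at gave 6679, against 4183 and 3744, and 2522 to 3860 later. Their log2 changes from P14 to P60 were -0.84 and -0.64 with all litters (adjusted p = 0.248 and 0.220), and -0.36 and -0.39 without P14 litter 1 (adjusted p = 0.344 and 0.321). The size of the Ptprz1 difference thus moved by over 1.5 times with that litter on both, and its direction did not. Over the 10 litters, the Pearson correlation between pairs of the 4 probe sets ran from 0.11 to 0.89. P14 litter 1 had the high control ratios given above, and their part in these values was not tested.

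**Figure D3:**
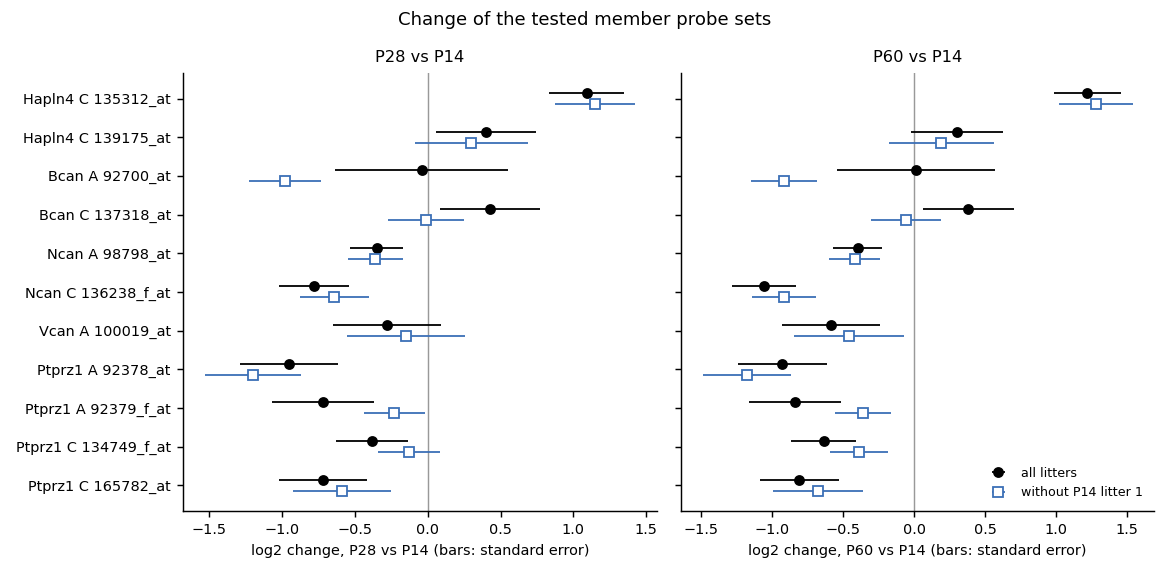
Log2 change of the 11 tested probe sets from P14 to P28 (left) and from P14 to P60 (right), with standard errors, for all litters (filled circles) and without P14 litter 1 (open squares). Hapln4 on 135312_at lies near 1.2 to the right of 0 in both fits for P60, Ncan and Ptprz1 lie to the left in both, and Bcan on 92700_at moves from 0.01 to -0.92.

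Between P14 and P60, 1 of the 11 tested probe sets had all P60 litters above all P14 litters, Hapln4 on 135312_at, where 6.61% of all tested probe sets did. The litters of P60 were all below those of P14 on 3 of them, both Ncan probe sets and Ptprz1 on 165782_at, where 6.42% of all did. Between P14 and P28, 4 were wholly lower (8.41% of all) and 1 wholly higher (9.45% of all). Between P28 and P60 only Ncan on 136238_f_at was separated, lower at P60 (4.46% of all), and none was wholly higher (3.9% of all). Over the tested probe sets of these genes the log2 changes from P28 to P60 ran from -0.31 to 0.13, with adjusted p of at least 0.905, while those from P14 to P28 ran from -0.95 to 1.09.

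Within a litter, a log2 difference between probe sets of the same chip cancels whatever scales the whole array, and its change with age can be read although its level cannot. The difference of Hapln4 (135312_at) minus Ncan (136238_f_at), both on chip C and a pair picked after their values were seen, was -3.73, -3.31 and -3.64 at P14. It was -1.66, -1.71 and -1.69 at P28 and -1.37, -1.55, -1.22 and -0.94 at P60. Each probe set alone already separated P14 from the older ages, in opposite directions. The separation of P14 in their difference was therefore fixed by the choice of pair and is no further result. P28 and P60 did not overlap either, but Ncan alone already separated these ages, while Hapln4 overlapped between them, so this is no further result. The mean difference moved by 1.87 from P14 to P28 and by a further 0.41 to P60. Hapln4 and Ncan, neighbours on chromosome 8, differed in opposite directions between P14 and P60 on these probe sets, as given for each above. Of the 2 probe sets, the Hapln4 one alone passed the test. No p is given for such differences because the members were chosen with results of these data known.

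The difference of Bcan (137318_at) minus Ncan was -3.83, -1.92 and -2.25 at P14, -1.66, -1.45 and -1.26 at P28, and -1.51, -1.24, -1.28 and -0.87 at P60. All P14 litters were below the older litters, by a mean of 1.44 against P60, or 0.86 without P14 litter 1. Ncan on 136238_f_at alone already separated P14 from the older litters, so this separation shows no change of Bcan. Without P14 litter 1 the log2 change from P14 to P60 was -0.06 for Bcan on 137318_at and -0.92 for Ncan. With the chip A probe set of Bcan the course would differ, as its values above show. Bcan on chip C minus Vcan on chip A spans 2 arrays, so array effects do not cancel in it, and this difference, from 1.88 to 4.14 at P14 and from 3.26 to 5.34 at P60, overlapped between ages. Differences planned with Hapln1 and Acan rest on probe sets near background and are not read, and the pair of tenascins lacked Tnr.

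**Figure D4:**
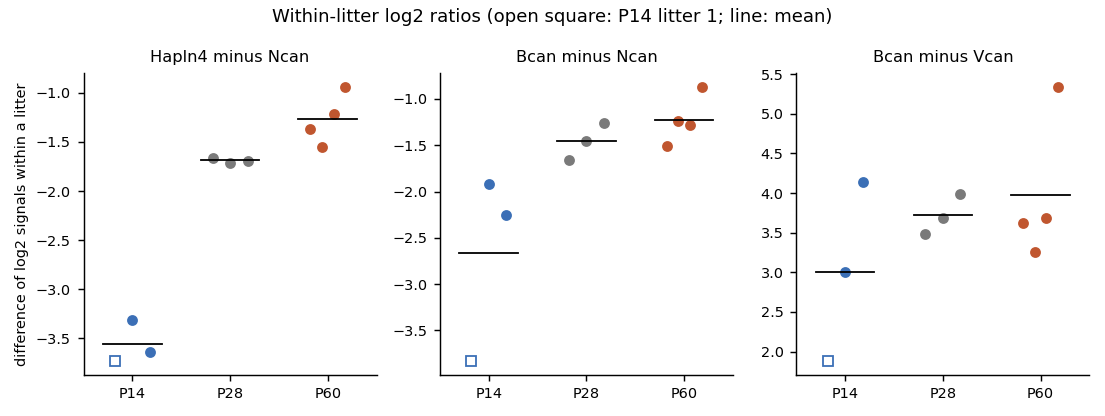
Difference of log2 signals within each litter for Hapln4 minus Ncan, Bcan minus Ncan (each pair on chip C) and Bcan minus Vcan (chip C minus chip A); the open square is P14 litter 1 and lines are means of each age. For Hapln4 minus Ncan the P14 litters lie between -3.73 and -3.31 and all older litters between -1.71 and -0.94. This pair was picked after its values were seen, so that separation was fixed by the choice.

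The genes whose log2 signal followed Hapln4 (135312_at) most closely over the 10 litters, among 11235 genes with a tested probe set, were Wwox (r = 0.975), Fam111a (0.958), Ndrg2 (0.954), Prag1 (0.927) and Lmo1 (0.923). For Ncan (136238_f_at) they were Syt11 (0.97), Nwd2 (0.936), Atxn7l3b (0.931), D430019H16Rik (0.925) and Arpc5l (0.922). None of the 10 genes passed the test between P14 and P60 (limma, adjusted p from 0.0665 to 0.449). High values of r are found by searching many genes, the points share litters and arrays, and the list is a description.

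Cell type markers were set beside these courses, with each gene's change given as the log2 change from P14 to P60. Of the interneuron list, 11 of 14 genes were tested and 6 of them were higher at P60 than at P14, with a median log2 change of 0.31 and no call (lowest adjusted p = 0.160). Pvalb, the calcium-binding protein of fast-spiking cells, had mean signals of 5156 ± 799 (SD, n = 3) at P14, 8474 ± 3208 (SD, n = 3) at P28 and 7593 ± 2943 (SD, n = 4) at P60 (0.48, adjusted p = 0.494). The list's median turned to -0.14 without P14 litter 1, with 4 higher and 7 lower, where Pvalb stood at 0.60 (adjusted p = 0.397) and Gad1 passed at 1.08 (adjusted p = 0.0187). The summed signal of the list ran from 29895 to 42847 at P14 and from 27494 to 39957 at P60. The myelin list moved in the direction of Hapln4, with 9 of 10 tested genes of 13 higher at P60, a median of 0.74 and a summed signal of 6503 to 13121 at P14, 12142 to 19911 at P28 and 12921 to 17676 at P60. Mag of the myelin sheath rose by 1.51 (adjusted p = 0.0461), and Mbp stood at 1.28 (adjusted p = 0.0613). When P14 litter 1 was left out, 8 of the 10 were higher (median 1.02) and 5 passed, Mag at 1.16 (adjusted p = 0.0235) and Mbp at 1.27 (adjusted p = 0.0325) among them. Cnp and Gjb1 were among the genes of that list not tested. The part of these cells in the Hapln4 result was not tested.

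No gene of the astrocyte, progenitor or dividing cell and radial glia lists passed with all litters, with lowest adjusted p of 0.105, 0.156 and 0.0514. Of 12 astrocyte genes 8 were lower at P60, with a median of -0.30, and summed signals of 47435 to 106149 at P14, where the highest was P14 litter 1, and 42821 to 64334 at P60. Gfap, an astrocyte filament protein, stood at -0.32 (adjusted p = 0.703). The astrocyte median was 0.02 without P14 litter 1, with 6 higher and 6 lower, and Gfap stood at 0.10 (adjusted p = 0.900). Of the progenitor list 5 of 9 were tested and 4 of them were lower (median -0.37, summed 11564 to 21778 at P14 and 12095 to 13992 at P60), with Pdgfra, the receptor that marks oligodendrocyte progenitors, at -0.37 (adjusted p = 0.403). Cspg4, Olig2 and Lhfpl3 were among those not tested. Of the list for dividing cells and radial glia 4 of 8 were tested and 3 were lower (median -0.47, summed 2689 to 4678 at P14 and 1528 to 2461 at P60, which did not overlap). Fabp7 had the largest difference in that sum, from a mean signal of 2408 at P14 to 779 at P60, while Mki67 went from 193 to 227. Medians of the progenitor and radial glia lists were -0.55 and -0.37 without P14 litter 1, with 1 higher and 4 lower, and 2 higher and 2 lower. In that fit 1 gene of these lists passed, the radial glia gene Fabp7 at -1.58 (adjusted p = 0.029). In the meningeal and fibroblast list, 7 of 10 tested, Igf2 fell by 1.79 on the log2 scale (adjusted p = 0.00937) and Dcn stood at -0.53 (adjusted p = 0.432), while the median was 0.16 and the summed signal ran from 19882 to 23242 at P14 and from 12537 to 28025 at P60. That median was -0.18 without P14 litter 1, where Igf2 stood at -1.81 (adjusted p = 0.00146) and Col1a1 passed at -0.75 (adjusted p = 0.0488). Of 11240 genes, 0.507% passed in this comparison with all litters and 2.61% without P14 litter 1. The part of these cells in the Ncan and Ptprz1 values was not tested.

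Summed signals overlapped between P14 and P60 for endothelial and mural genes (1542 to 2718 and 1512 to 2060, 5 of 9 tested), microglia (5496 to 8565 and 5366 to 6557, 6 of 9 tested) and excitatory neurons. Those of the choroid plexus list, 2 of 5 tested, did not overlap, with 384 to 713 at P14 and 797 to 1178 at P60, the direction of Hapln4, with Ttr, Kl and Kcnj13 not tested. The P14 sum of 384 was that of P14 litter 1. Folr1 and Clic6, the genes tested, had P14 means of 235 and 352, around the Bacillus level of 252 on their chip, C. No gene of these lists passed with all litters, with lowest adjusted p from 0.176 to 0.385 between P14 and P60, and without P14 litter 1 Cldn5 (-1.36, adjusted p = 0.0322) and Tbr1 (1.02, adjusted p = 0.0175) passed.

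For the wider set of matrix genes the values are again log2 changes from P14 to P60, and 1 gene passed the test with all litters. Among ligands, receptors and axonal partners of the lecticans and of Ptprz1, 22 of 23 genes were tested, 10 higher and 12 lower at P60, with a median of -0.16. Ncam1, the neural cell adhesion molecule that neurocan binds, fell between P14 and P60 by 1.02 on the log2 scale with a standard error of 0.175 (limma, adjusted p = 0.0311), from a mean signal of 3310 ± 319 (SD, n = 3) to 1608 ± 137 (SD, n = 4), and no other gene of that list passed. It stood at -1.10 without P14 litter 1 (adjusted p = 0.0065), where Nptx1 (0.85, adjusted p = 0.0447) and Epha4 (-1.15, adjusted p = 0.0266) passed as well and the list median was -0.21. Of the other link proteins and proteoglycans 18 of 26 were tested, 8 higher and 10 lower, with none past the threshold. Sparc, a collagen-binding matrix protein, stood at -1.10 (adjusted p = 0.0631), Spock1, a testican proteoglycan, at -0.67 (0.139) and the glypican gene Gpc2 at -1.06 (0.254). Sparc (-1.21, adjusted p = 0.0274) and Spock1 (-0.75, adjusted p = 0.0488) passed without P14 litter 1, and the list median went from -0.23 to -0.14. Hapln2, the link protein of nodes of Ranvier and the neighbour of Bcan, stood at 0.15 (adjusted p = 0.798); it was picked with its values known.

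Of 14 tested genes among 24 for the synthesis, sulphation and breakdown of chondroitin sulphate chains, 7 were higher and 7 lower at P60, with a median of -0.03 and none past the threshold. Arsb, a lysosomal sulphatase, stood at -0.58 (adjusted p = 0.176), B3gat3, an enzyme of the linker that joins chain to protein, at 0.88 (0.265), and Ids, another lysosomal sulphatase, at -0.68 (0.309). Of 4 tested genes among 12 for hyaluronan, all 4 had lower means (median -0.41, none past the threshold), Cemip2 at -0.78 (adjusted p = 0.265), Hyal2 at -0.61 (0.439) and Hyal1 at -0.22 (0.747). The hyaluronan synthases Has1, Has2 and Has3 were not tested. Of 13 tested genes among 24 for proteases and inhibitors, 10 were higher and 3 lower, with a median of 0.25 and none past the threshold. Mmp16, a membrane-bound metalloproteinase, stood at -1.03 (adjusted p = 0.117), Mmp17 at 1.00 (0.217) and Timp3, a metalloproteinase inhibitor held in the matrix, at 0.59 (0.310). The median of all 11240 genes was 0.04. Without P14 litter 1 none of these last 3 lists had a call, and their medians were -0.07, -0.66 with 3 of 4 lower, and 0.40.

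**Figure D5:**
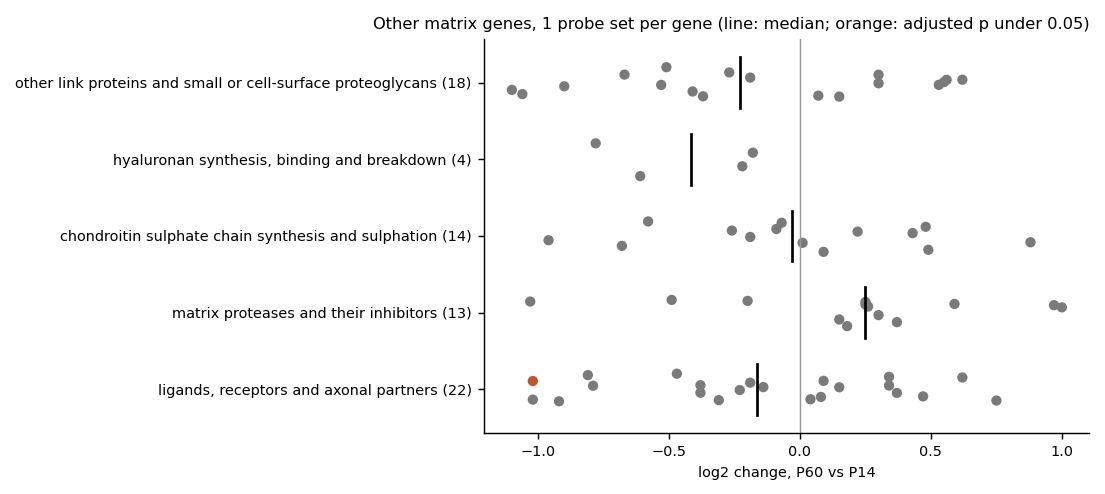
Log2 change from P14 to P60 of the tested genes of 5 matrix lists, 1 probe set per gene; vertical lines are medians and the orange point is the gene with an adjusted p under 0.05, Ncam1 at -1.02. List sizes after the filter are in brackets, and medians run from -0.41 to 0.25.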

How the data were processed

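The authors deposited MAS5 signal intensities, 1 per probe set and array, on a linear scale (MAS5 per the submitters' processing notes, with no version stated). Each of the 30 arrays had the same 2% trimmed mean, and no further scaling was applied. Symbols came from the array annotation, updated by gene ID, which matched for 99.7%. Intensities were fitted as log2 of the signal plus the 20th percentile of the chip type (38.6, 57.8 and 44.0 for chips A to C), one chip type at a time, with limma 3.58.1 in R 4.3.3 (variance trend), age as the only term and all 10 litters. Probe sets above the chip median on at least 3 arrays were tested, 20724 in all, and p-values were adjusted by Benjamini-Hochberg over the 3 chip types together (threshold 0.05). Other matrix genes and markers were counted on the brightest tested probe set per gene. Named were all members, list genes past the threshold, otherwise the 3 with the smallest P60 against P14 p per matrix list, 5 set marker genes, and the 5 genes most correlated with the riser and the faller of smallest p. The fit was tested on simulated data. Same-numbered litters did not deviate together (correlations from -0.08 to 0.16 over 27 pairs), so litter number was used only as an alternative. Members and lists were chosen with earlier results of these data known.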

Additional observations from a re-analysis of the deposited data

Results flagged for a closer look

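Ncan on probe set 136238_f_at had a signal of 6293 in P60 litter 2, where the other P60 litters lay between 8358 and 8505, so this litter was far from a tight group. Chance alone gives such a flag in about 1 of 20 groups of 4 litters, and 11 probe sets were examined. On that chip litter 2 was also the lowest P60 litter for both tested Hapln4 probe sets (2113 and 196), for Bcan on 137318_at (2632) and for Ptprz1 on 134749_f_at (2522). For Ptprz1 on 165782_at the lowest was litter 4 (280), with litter 2 at 309. The chip C array of litter 2 had the lowest mean correlation with the others of its chip among all 30 arrays, 0.86. The cause was not tested.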

How the results depend on the processing

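Probe sets near the Bacillus controls give no size of change. The count of called members between P14 and P60 was 1 in the main analysis and 0 with the 5th percentile as constant, with no filter, with no variance trend, with litter number as a replicate block (0 probe sets called in all) or with only the 2 ages compared, 0 to 1 when 1 litter was left out, and 5 with array weights, which called 3621 probe sets in all (17.5%). Between P14 and P28 it was 0, against 4 with array weights (1163 probe sets in all, 5.61%) and 2 in the restricted set (without P14 litter 1 on all chips, P60 litters 1 and 4 on chips A and B, and P60 litter 2 on chip C), and over the 3 ages 0, against 4 and 1. Over all probe sets the 82 calls between P14 and P60 became 51 with no variance trend, 0 with only the 2 ages compared or without P14 litter 2, 8 without P60 litter 4 and 497 without P14 litter 1. The 23 calls over the 3 ages became 3024 with array weights, 221 in the restricted set, 6 with no variance trend and 15 with quantile normalization. The causes were not tested. Hapln4 on 135312_at stood at 1.08 with the block (adjusted p = 0.176), and the block changed no other member's call.

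These changes of sign were found. Bcan on 92700_at (0.01 from P14 to P60) was -0.03 with the 40th percentile as constant, -0.04 with the block, -0.82 with array weights and -1.06 in the restricted set, and from -0.92 to 0.62 when 1 litter was left out. Its change to P28 ran from -0.98 to 0.56 over such fits. Bcan on 137318_at was -0.01 at P28 in the restricted set, and ran from -0.01 to 0.73 at P28 and from -0.06 to 0.68 at P60 with 1 litter left out. From P28 to P60, Hapln4 was -0.01 with the block and from -0.01 to 0.33 with 1 litter left out (135312_at), and 0.06 with array weights (139175_at). In the restricted set Bcan was -0.08 (92700_at) and 0.06 (137318_at), Ncan on 98798_at 0.05 and Vcan 0.06 (against -0.31 with all litters), and Bcan on 137318_at was 0.01 with quantile normalization. With 1 litter left out Bcan ran from -0.02 to 0.23 (92700_at) and from -0.20 to 0.08 (137318_at). Ptprz1 on 92378_at was -0.11 with quantile normalization, -0.04 with array weights and from -0.15 to 0.27 with 1 litter left out, and on 165782_at from -0.23 to 0.04. The lists of other genes without P14 litter 1 were added after seeing the data.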
